A study of Rattus norvegicus with 4 samples.

Results

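The CCAAT/enhancer-binding proteins (C/EBPs) Cebpa, Cebpb, Cebpd and Cebpg were followed in cultured rat aortic smooth muscle cells given the pro-inflammatory cytokine interleukin-1 beta (IL-1b). They were taken by gene symbol, as every probe set whose platform annotation gives 1 symbol that is 1 of these 4. This gave 11 probe sets of 31042 on the array that are not controls, and 4 genes of 14217 that have such a probe set. The cells came from Sprague-Dawley rats and spent 5 days in medium with 10% serum, then 3 days without serum. For the last 24 hours 2 samples received IL-1b at 2.5 ng/mL and 2 received the vehicle, 0.1% bovine serum albumin (BSA), and each sample was read on its own Affymetrix array. Which transcripts the cytokine raised or lowered is the question of the comparison. Nothing in the labels tells whether the numbered samples are separate cultures, so the p-values reflect the spread of these arrays only, and that spread may be technical.

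C/EBP proteins are transcription factors with a basic leucine zipper. They bind DNA as pairs, with themselves, with each other or with related factors. C/EBP-beta and C/EBP-delta are known for the acute phase response, in which interleukin-1 and interleukin-6 act on their target genes together with NF-kB. C/EBP-alpha is known for growth arrest and for the genes of liver and fat cells, and C/EBP-gamma is a short member without a classical activation domain that pairs with the others and with ATF4.

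Values are MAS5 intensities on a linear scale, which set 1 probe set against itself across arrays and do not rank different genes. IL-1b replicate 1 stood apart. Its spiked hybridisation controls read 3.53 times their vehicle mean, against 0.957 to 1.03 times on the other arrays. Its background, the 95th percentile of 27 bacterial control probe sets that read dim, was 76.7 against 18.8 to 29.4. For the C/EBP genes, values with 1 array left out stand beside each result. Leaving out an IL-1b array also raises the share of all probe sets called, from 13.4% to 29.1% without IL-1b replicate 1 and to 46.5% without IL-1b replicate 2. All 8 smooth muscle markers chosen were measured and above background on both vehicle arrays. With IL-1b 7 of them were lower, where 8.13% of all genes tested were. Among the 7 were Cnn1 (calponin) at a log2 fold change of -2.90 and Acta2 (smooth muscle actin) at -1.65. Without the intensity trend in the fit, Acta2 (adjusted p = 0.056), Myh11, Tagln and Cald1 did not pass, and Myh11 and Tagln did not pass without either vehicle array. In bulk samples fewer cells of a type and less RNA per cell cannot be told apart.

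Cells given IL-1b held about 3.00 times the vehicle level of Cebpb transcript, and 3.32 or 7.31 times that of Cebpd, depending on the probe set. Neither Cebpg nor Cebpa passed the threshold of an adjusted p of 0.05 in limma. At the brightest probe set of each gene, 2 of the 4 C/EBP genes rose and 0 fell. Over all 10000 genes tested, 7.19% were called higher and 8.13% lower (15.3% in either direction). Of the 11 C/EBP probe sets, 7 were bright enough to be tested and 3 of these rose, where 6.32% of all probe sets tested rose and 7.11% fell (13.4% in either direction).

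**Figure D1:**
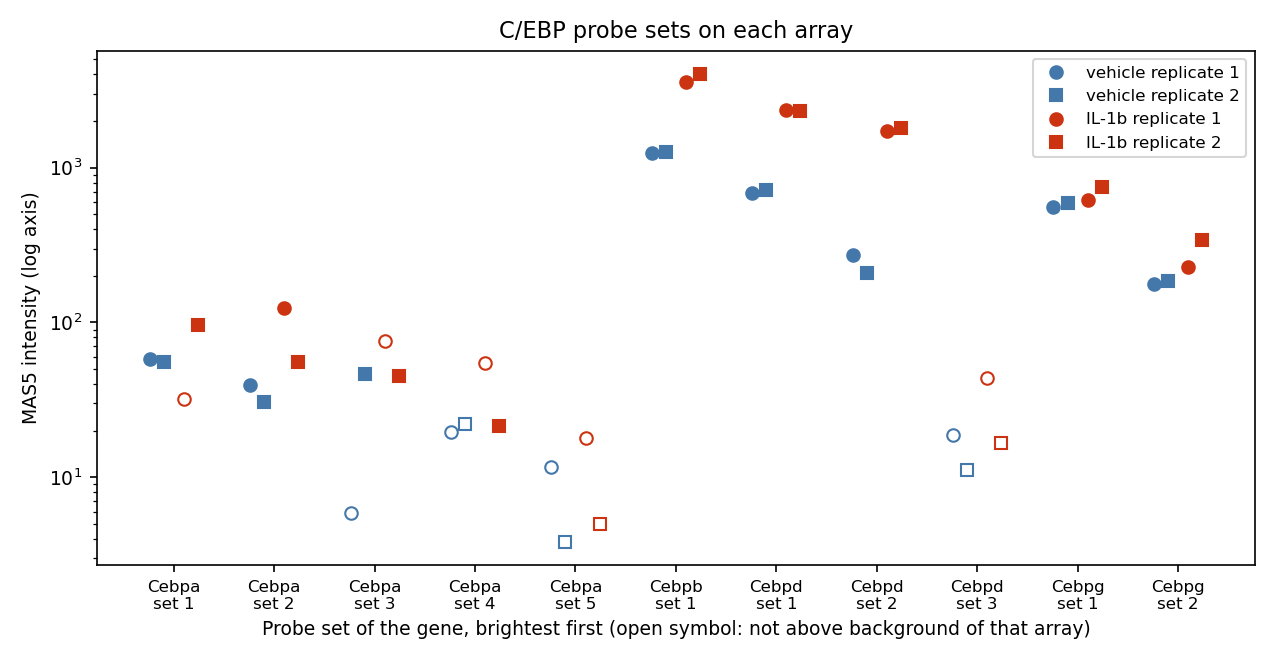
MAS5 intensity, on a log axis, of the 11 C/EBP probe sets on each of the 4 arrays, with the probe sets of a gene ordered from the brightest. Blue is vehicle, red is IL-1b, circles are replicate 1, squares are replicate 2, and open symbols lie at or below the background of their array. The red symbols of Cebpb and of Cebpd sets 1 and 2 lie above the blue ones by several times the spread within a group, and Cebpa lies near background.

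Cebpb, the C/EBP that interleukin-6 signalling acts through in the acute phase response, has 1 probe set (1387087_at). It read 1237 and 1268 with vehicle, and 3548 and 4011 with IL-1b. Every IL-1b value lay far above both vehicle values, and each group varied little within itself. The means were 1252 ± 22.2 and 3779 ± 327 (SD, n = 2). The log2 fold change was 1.59 ± 0.14 (SE, limma adjusted p = 0.00066), with a 95% interval of 1.24 to 1.93. It was 1.50 to 1.67 when any 1 array was left out, and 3.47% of all genes tested had a larger increase.

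Cebpd, the member best known for fast induction by cytokines, has 3 probe sets. The brightest (1387343_at) read 688 and 712 with vehicle and 2353 and 2324 with IL-1b. The second (1368813_at) read 271 and 207 with vehicle and 1734 and 1799 with IL-1b. In both, the groups were far apart and the IL-1b arrays nearly equal, although IL-1b replicate 1 stood apart in other respects. The log2 fold change was 1.73 ± 0.13 at the brightest probe set (SE, limma adjusted p = 0.00036) and 2.87 ± 0.18 at the second (adjusted p = 0.00015). Their 95% intervals, 1.41 to 2.05 and 2.45 to 3.29, do not overlap, so the direction is shared and the size of the increase depends on the probe set. The third probe set (1389828_at) was at or below background on all 4 arrays, at 11.2 to 43.9, and was not tested. Leaving out any 1 array gave 1.71 to 1.76 for the brightest and 2.68 to 3.06 for the second.

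Cebpg has 2 probe sets. The brightest (1372885_at) read 557 and 587 with vehicle and 615 and 747 with IL-1b. The other (1371038_at) read 178 and 185 with vehicle and 228 and 339 with IL-1b. In both, the IL-1b arrays lay above the vehicle arrays, which 29.2% of all probe sets tested did, and 29.4% of genes at their brightest probe set, and the IL-1b arrays differed from each other more than the lower one differed from vehicle. The log2 fold changes were 0.24 (95% interval -0.15 to 0.63, limma adjusted p = 0.39) and 0.60 (95% interval -0.0038 to 1.20, adjusted p = 0.19). Increases of up to 1.55-fold and 2.30-fold lie within these intervals, so the data do not show that Cebpg stayed at its vehicle level. Without IL-1b replicate 1 both passed, at 0.38 (adjusted p = 0.026) and 0.88 (adjusted p = 0.0018), and the C/EBP genes called higher were then 3. That fit rests on the spread of the vehicle arrays alone, and it called 29.1% of all probe sets tested.

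Cebpa has 5 probe sets, all dim. Its brightest (1384127_at) read 58.4 and 55.9 with vehicle, and 32.0 and 96.6 with IL-1b. The IL-1b arrays lay on either side of the vehicle arrays, and the value on IL-1b replicate 1 was below that array's background. Its log2 fold change of -0.02 (95% interval -1.48 to 1.44, limma adjusted p of 0.99) became 0.71 when IL-1b replicate 1 was left out and -0.74 when IL-1b replicate 2 was. The second probe set (1383243_at) read 39.7 and 30.6 with vehicle and 125 and 55.9 with IL-1b, a log2 fold change of 1.15 (adjusted p = 0.25). It is the only 1 of the 7 probe sets tested whose vehicle mean lay under the brightness filter, and without IL-1b replicate 2 it passed at 1.69 (adjusted p = 0.014) in a fit that called 46.5% of all probe sets. Without IL-1b replicate 1 it was at 0.61. The other 3 read 3.85 to 75.4 over the 4 arrays and were not tested. At the brightest probe set of Cebpa the interval runs from 0.359-fold to 2.72-fold, so a change of 2-fold either way lies within it.

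**Figure D2:**
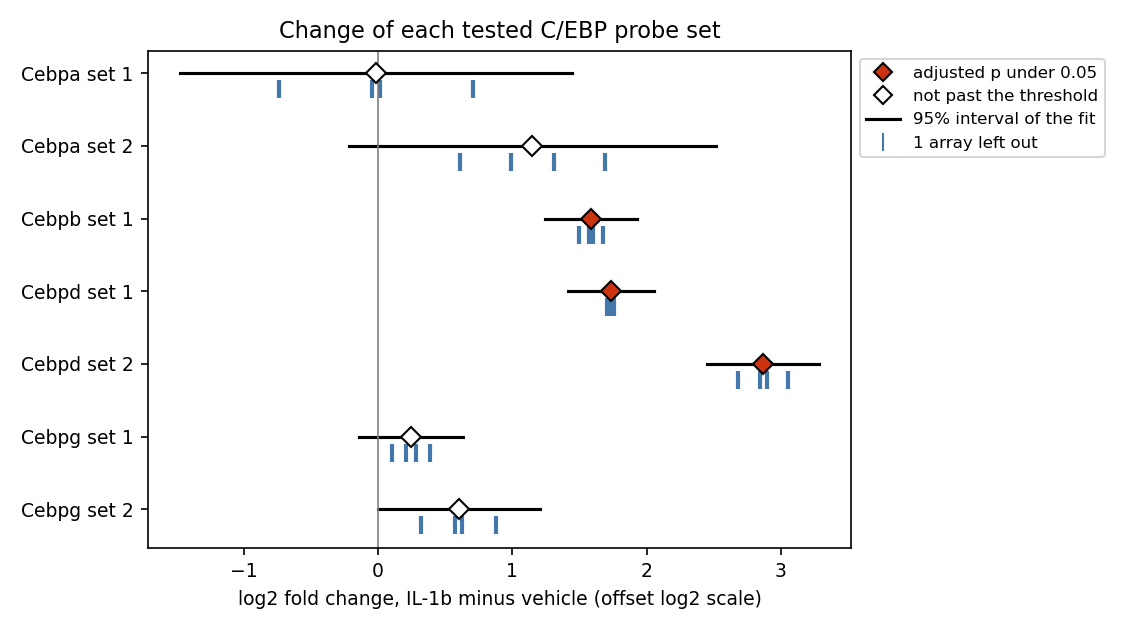
Log2 fold change of the 7 C/EBP probe sets tested, IL-1b minus vehicle, with the 95% interval of the fit as a line and the values with 1 array left out as blue ticks. Filled diamonds passed an adjusted p of 0.05. Cebpb at 1.59 and Cebpd at 1.73 and 2.87 have narrow intervals and ticks close to the fit, while the ticks of Cebpa at its brightest probe set run from -0.74 to 0.71.

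Ratios within an array are nearly free of that array's scaling where both genes are bright. The offset added before log2 and the array's background do not cancel, which matters most for the dim Cebpa. At the brightest probe sets, the log2 ratio of Cebpg to Cebpb fell by 1.34 from vehicle to IL-1b, and that of Cebpg to Cebpd fell by 1.49. Both decreases were several times the SD within a group, which was at most 0.21. Leaving out 1 array gave -1.39 to -1.29 and -1.64 to -1.34. Cebpd against Cebpb moved by 0.15, with an SD of 0.14 among the IL-1b arrays, so the increases of these genes were of like size at the brightest probe sets and not at the second probe set of Cebpd. Leaving out 1 array gave 0.05 to 0.24 for it. Ratios to Cebpa were higher by 1.60 for Cebpb and by 1.75 for Cebpd, and that of Cebpg to Cebpa by 0.26, with SDs of 0.83 to 1.04 among the IL-1b arrays. Without IL-1b replicate 1, where Cebpa was below background, these were 0.97, 1.02 and -0.32, and without IL-1b replicate 2 they were 2.24, 2.48 and 0.84. With 2 arrays in each group an exact two-sided permutation test cannot give a p under 0.333. That was the value for 5 of the 6 pairs, and it was 1.00 for Cebpg to Cebpa.

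Promoters of Cebpa, Cebpb and Cebpg were read from RefSeq, build GRCr8, and that of Cebpd was not analysed here. The 250 bases before the start of each are shown, because 1 of these genes rose and the others did not pass. Capitals mark every match, on either strand, to the NF-kB motif (GGG and CC with 5 bases of any kind between them), TGACG (the inner letters of the cyclic AMP response element, CRE, added after the sequences were seen) and CCAAT.
Cebpb, chr3:176816755-176817004, plus strand: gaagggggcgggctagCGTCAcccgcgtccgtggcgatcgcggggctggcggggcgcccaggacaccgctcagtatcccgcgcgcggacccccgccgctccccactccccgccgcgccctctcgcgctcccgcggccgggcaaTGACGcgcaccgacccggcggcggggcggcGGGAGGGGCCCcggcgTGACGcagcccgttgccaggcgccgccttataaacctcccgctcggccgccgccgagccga
Cebpg, chr1:96829737-96829986, minus strand: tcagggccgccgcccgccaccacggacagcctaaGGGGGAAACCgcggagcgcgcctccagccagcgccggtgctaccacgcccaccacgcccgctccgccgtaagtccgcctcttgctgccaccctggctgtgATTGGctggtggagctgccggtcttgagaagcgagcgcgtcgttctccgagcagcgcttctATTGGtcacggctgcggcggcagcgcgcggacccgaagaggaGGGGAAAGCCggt
Cebpa, chr1:96896334-96896583, plus strand: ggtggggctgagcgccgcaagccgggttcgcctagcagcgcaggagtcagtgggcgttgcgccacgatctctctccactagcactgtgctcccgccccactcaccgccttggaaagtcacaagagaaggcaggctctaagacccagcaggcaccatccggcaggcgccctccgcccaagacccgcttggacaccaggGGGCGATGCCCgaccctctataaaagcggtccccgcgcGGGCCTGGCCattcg
Cebpb holds 3 matches to TGACG, at -234, -107 and -61, where the last base before the start is -1, and Cebpg and Cebpa hold 0. At least 1 is present in 18.2% of all 33465 promoters, and the share among genes tested was not counted. Because TGACG was added after these sequences were seen, this difference between the 3 genes is a description only. All 3 genes match the NF-kB motif, as do 42.3% of all promoters and 61.7% of those of genes tested, and matches at neighbouring positions overlap each other. Cebpg has 2 matches to CCAAT, both read as ATTGG in the printed sequence, and 34.0% of all promoters hold at least 1 on either strand. None of the 3 holds TTGCNNAA (C/EBP, 9.22% of all promoters), TTGCATCA (C/EBP with ATF, 0.693%), TTCNNNGAA (STAT, 7.67%), TGACGTCA (CRE, which contains TGACG, 1.59%) or TGANTCA (AP-1, 6.34%). A match is a run of letters, and no binding was measured. The bases are 80.0% G or C in Cebpb, 70.4% in Cebpg and 67.2% in Cebpa, against a median of 51.2% over all promoters. Cebpg and Cebpa lie close together on the same chromosome in GRCr8, with 1 listed gene between them, which is not protein-coding.

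Among 11 related factors on the array, 7 were bright enough to be tested. Of these 1 rose and 0 fell, where 7.19% of all genes tested rose and 8.13% fell. The 1 that rose was Nfil3, a repressor of the same zipper class, which read 88.1 and 109 with vehicle and 297 and 248 with IL-1b (log2 fold change 1.42 ± 0.26, SE, adjusted p = 0.014). Without vehicle replicate 1 it did not pass (adjusted p = 0.065), and with either IL-1b array left out 2 factors rose and 1 fell, in fits that called 29.1% and 46.5% of all probe sets. Ddit3 (CHOP), a C/EBP relative of the stress response, read 519 and 512 with vehicle and 622 and 626 with IL-1b (adjusted p = 0.29). Atf4, the partner of C/EBP-gamma in the amino acid response, read 3545 and 3870 against 5269 and 3913 (adjusted p = 0.37), and it passed at 0.51 without IL-1b replicate 2. Cebpz shares the name but is no zipper protein, and its log2 fold change was 0.12 (adjusted p = 0.73), and 0.35 without IL-1b replicate 1, where it passed (adjusted p = 0.025). The myeloid member Cebpe was at 3.24 and 15.0 with vehicle and 46.2 and 32.7 with IL-1b, above background on 1 array and not tested. Atf3, picked for naming once its values were known, read 32.9 and 59.2 with vehicle, above background on both arrays. With IL-1b it read 12.4 and 13.1, below background on both, and it was not tested. Of the 11 factors, 4 had both IL-1b values above both vehicle values, against 29.4% of all genes tested. Both lay below in 3, Atf3 and also Atf5 and Dbp, which did not pass.

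Of 31 genes known to raise, activate, restrain or degrade C/EBPs, 30 were tested. IL-1b raised 7, lowered 3 and left 20 not past the threshold, with a median log2 fold change of 0.01 against -0.01 over all genes tested. For comparison, 7.19% of all genes tested passed as higher and 8.13% as lower. The receptor chain Il6st (gp130), through which interleukin-6 acts, read 1411 and 1212 with vehicle and 7776 and 5727 with IL-1b. Its log2 fold change was 2.35 ± 0.19 (SE, adjusted p = 0.00042), and its 4 probe sets gave 2.35 to 2.56. Its ligand Il6 rose by 6.44 and the IL-1 receptor Il1r1 by 3.98 (log2), and the inhibitor Socs3 also rose. Socs3 was below background on both vehicle arrays, at 17.6 and 21.9, and entered the test through its IL-1b values of 140 and 107, so its increase is given as at least 4.36-fold against background. It missed the threshold without either vehicle array. Stat3, which carries the interleukin-6 signal to the Cebpd promoter, read 2866 and 2697 against 4422 and 3545, a log2 fold change of 0.51 that missed the threshold (adjusted p = 0.10). It passed without IL-1b replicate 1 or 2 (0.35 and 0.67) and after quantile normalization (0.44).

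The pseudokinases Trib1 and Trib2, which bring C/EBP-alpha to the ubiquitin ligase Cop1 for degradation, moved in opposite directions. Trib1 read 109 and 104 with vehicle and 362 and 229 with IL-1b (log2 fold change 1.39 ± 0.29, SE, adjusted p = 0.023). Trib2 read 636 and 624 with vehicle and 172 and 313 with IL-1b (-1.42 ± 0.28, adjusted p = 0.0185), and its second probe set, at -0.43, did not pass. Without vehicle replicate 2 Trib1 was at an adjusted p of 0.053, and without the intensity trend neither passed (0.081 and 0.11). Cop1 did not pass (-0.44, adjusted p = 0.27) except without IL-1b replicate 2 (-0.78). Also lower were 2 genes picked for naming once their values were known: Smarca2, a chromatin remodeller that C/EBPs recruit, at -1.19, and the kinase Mapk14 (p38) at -0.69. Without vehicle replicate 2 neither passed, and without vehicle replicate 1 Mapk14 did not. In this list 4 genes rose and 1 fell without vehicle replicate 2, 11 rose without IL-1b replicate 1, and 7 fell without IL-1b replicate 2. The fits without an IL-1b array called 29.1% and 46.5% of all probe sets, against 13.4% with all arrays.

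Of 28 acute phase, cytokine and enzyme genes known as targets of C/EBP-beta or C/EBP-delta, 17 were bright enough to be tested and all 17 rose, by 1.60 to 9.57 on the log2 scale. The other 11 were too dim. Of all genes tested 7.19% rose. Both IL-1b values lay above both vehicle values in 20 of the 28, against 29.4% of all genes tested, and below both in 1. That 1 was A2m, at 29.8 and 26.8 with vehicle and 7.33 and 1.67 with IL-1b, above background on 1 vehicle array. The list was chosen with earlier results of these data known, and 4 of the 17 passed the filter although their vehicle mean lay under it, so its count is no independent evidence of direction. With no filter 15 of 28 passed, and the median, 5.13 on the log2 scale after the filter, became 2.22. The largest increases were those of the acute phase protein Orm1 at 9.57, the phospholipase Pla2g2a at 8.91, the growth factor Csf3 at 7.66 and complement C3 at 7.03, and the siderophore binder Lcn2 rose by 6.11. Orm1 and Csf3 were above background on 1 of the 2 vehicle arrays and Pla2g2a on neither, so these fitted values depend on the offset.

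Pdgfra, a growth factor receptor whose transcription C/EBP-delta is known to raise in vascular smooth muscle, read 31.7 and 46.3 with vehicle and 148 and 146 with IL-1b. The groups were well apart near the lower end of the scale. Its log2 fold change was 1.80 ± 0.41 (SE, adjusted p = 0.031). It missed the threshold without vehicle replicate 1 (adjusted p = 0.16), without vehicle replicate 2 (0.077) and with no filter (0.051). Pdgfra is also a marker of fibroblasts. Of the 4 fibroblast markers chosen, 3 were tested and 2 rose, Pdgfra and Dpt, where 7.19% of all genes tested rose. The vehicle mean of Dpt, 25.2, lay under the brightness filter. Dcn read 37.4 and 16.5 with vehicle and 6.75 and 38.6 with IL-1b, and was not tested. The summed intensity of all 4 was 538 to 582 with vehicle and 1125 to 1707 with IL-1b, most of it from Lum, which did not pass (adjusted p = 0.078). For 6 leukocyte markers the sum was 650 to 710 and 961 to 1050, most of it from Cd14. The defining marker Ptprc was above background on IL-1b replicate 1 alone. Of the 6, 2 had both IL-1b values above both vehicle values, as did 29.4% of all genes tested. The share of all genes with both below was not counted, and 1 of the 6 had both below. The latter was Csf1r, at 55.5 and 49.8 with vehicle and 16.7 and 28.8 with IL-1b, which was not tested. For 4 endothelial markers the sum was 50.2 to 81.6 and 73.4 to 125, with Pecam1 and Vwf below background on all 4 arrays. Tek was above background on both vehicle arrays, at 39.2 and 50.6, and did not pass. Kdr read 5.16 and 5.64 with vehicle and 54.0 and 36.1 with IL-1b, above background on IL-1b replicate 2 alone, and was not tested. The part of these cell types in the C/EBP results was not tested.

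**Figure D3:**
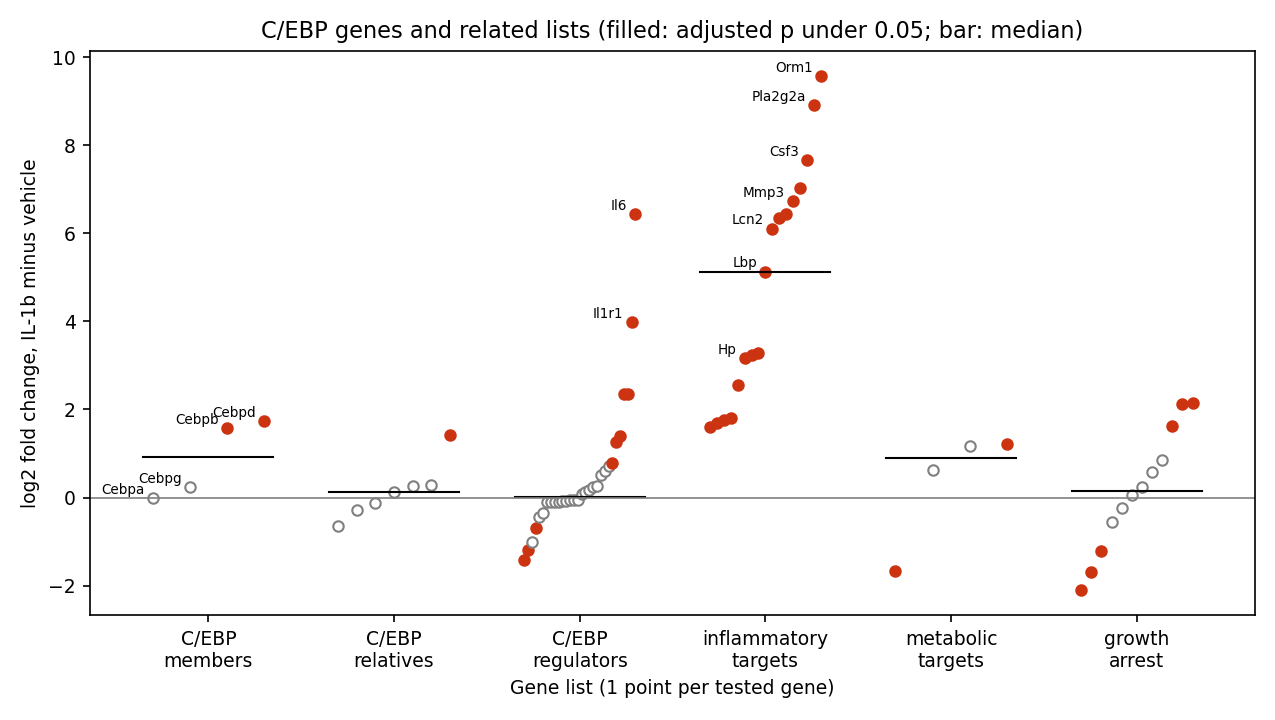
Log2 fold change of each tested gene, IL-1b minus vehicle, in the C/EBP genes and 5 related lists, ordered within a list. Filled points passed an adjusted p of 0.05, bars are medians, and a subset of the larger changes is named. The 17 tested inflammatory targets all lie above 0, while the related factors and the regulators have medians of 0.12 and 0.01.

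To set the letters beside these increases, the 30 bases around TTGCNNAA matches before the start of 8 targets that rose are shown, with the match on either strand in capitals (RefSeq, GRCr8, first start listed).
Orm1, chr5:81788375-81788404, plus strand: gagggaacattTTGTGCAAgacatttccca
Hpx, chr1:169352337-169352366, minus strand: cagctggaaatTTGCTGAAgggggtaggga
C3, chr9:2201425-2201454, minus strand: aggaaaccacgTTGCGAAAtctggggcagc
Lcn2, chr3:36081953-36081982, minus strand: agcccttccttTTGCTCAAccttgcacagt
Cp, chr2:104368587-104368616, plus strand: attatttactcTTGTGCAAcattaaattgt
Il6, chr4:5894709-5894738, minus strand: atgacgtcacaTTGTGCAAtcttaataagg
Ptgs2, chr13:64713912-64713941, plus strand: ccctatgggtaTTATGCAAttggaagcgga
Mmp3, chr8:12925099-12925128, plus strand: caccattcgctTTGCAAAAttaagaaggtt
Promoters of 12 of the 17 targets that rose were used, and 8 of these 12 hold a match within 250 bases. Since these genes were picked as known targets, this share says nothing on its own about the array data. Over all genes tested that have an entry, a match was present in 54 of 585 that rose (9.23%). It was present in 38 of 655 that fell (5.80%) and 519 of 7177 that did not pass (7.23%). The picked targets were not taken out of these counts. The share was 7.26% over all tested genes with an entry and 9.22% over all promoters. Orm1, Cp (ceruloplasmin) and Il6 carry the same 8 letters, TTGTGCAA. The match in Il6 lies next to its CRE. Cp read 107 and 94.4 with vehicle and 337 and 298 with IL-1b (log2 fold change 1.60 ± 0.24, SE, adjusted p = 0.0058), and Hpx (hemopexin), which scavenges heme, read 39.0 and 47.7 against 185 and 124 (1.69 ± 0.41, adjusted p = 0.037). Hpx missed the threshold without either vehicle array (adjusted p = 0.15 and 0.11).

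**Figure D4:**
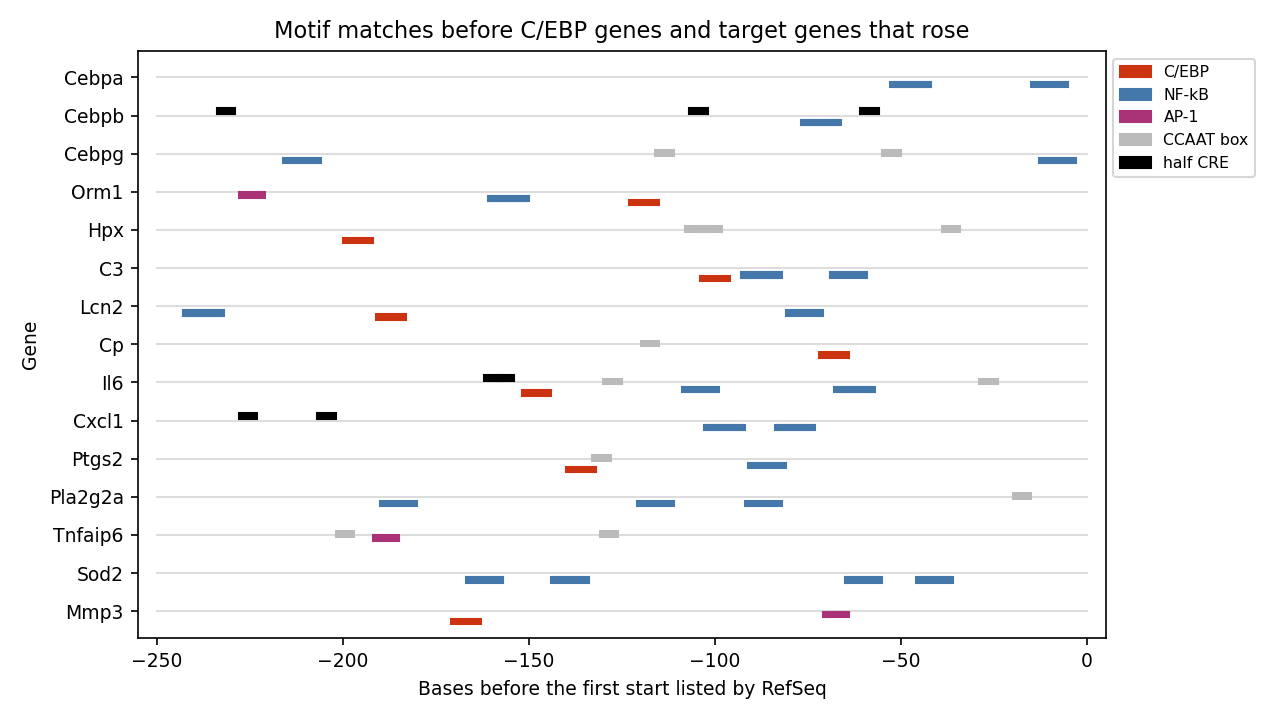
Position of motif matches in the 250 bases before the first start RefSeq lists, for 3 C/EBP genes and 12 target genes that rose, with 1 row for each gene and the start at 0. Colours are the motifs, and overlapping matches merge into 1 bar. Red C/EBP bars are present in 8 of the 12 targets and in none of the 3 C/EBP genes.

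Of 19 metabolic genes known as targets of C/EBP-alpha, 15 were too dim to be tested. Among the 4 tested, 1 rose and 1 fell, where 7.19% of all genes tested rose and 8.13% fell. Plin2, which coats lipid droplets, rose by 1.22 (adjusted p = 0.0047) at its brightest probe set and its other probe set did not. With median centring Plin2 missed the threshold at its brightest probe set (limma adjusted p = 0.14). The glucose transporter Slc2a4 fell by 1.66 (adjusted p = 0.039), and missed the threshold without either vehicle array. Pparg, the partner of C/EBP-alpha in fat cell formation, read 10.0 and 14.7 with vehicle and 51.1 and 33.9 with IL-1b, above background on 1 array. Of the 4 adipocyte markers chosen, Adipoq, Lep and Cidec were below background on all 4 arrays. Plin1 was above background on IL-1b replicate 1 alone, at 97.7.

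Of 12 genes of growth arrest and of the cell cycle proteins that C/EBP-alpha binds, 3 rose, 3 fell and 6 did not pass. Among all genes tested 7.19% rose and 8.13% fell. The 6 include Ccnd1, picked for naming once its values were known, at 0.86 (limma adjusted p = 0.076) at its brightest probe set. Of its 3 probe sets tested, 2 passed as higher, and the 3 gave 0.84 to 1.33. Gadd45a, a growth arrest gene, read 535 and 436 with vehicle and 2003 and 2359 with IL-1b (log2 fold change 2.16 ± 0.17, SE, adjusted p = 0.00036). The inhibitor Cdkn2b rose by 2.14 and Cdkn1a (p21) by 1.63, the latter at 0.95 without IL-1b replicate 1. Cdkn1a missed the threshold in the fit with no intensity trend (adjusted p = 0.16). Gadd45g fell by 2.09 and the inhibitor Cdkn1b (p27) by 1.68, while the second probe set of Cdkn1b was at 0.37 and did not pass. Rb1, picked for naming once its value was known, fell by 1.21 and did not pass without vehicle replicate 2. In this list 5 genes rose with IL-1b replicate 1 left out, and 6 with IL-1b replicate 2 left out, where 29.1% and 46.5% of all probe sets were called.

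Over the 4 arrays, the gene whose log2 profile lay nearest to that of Cebpd among 9931 genes was Tnfaip6, a hyaluronan-binding protein of inflammation, with a root mean square distance of 0.023 after each profile was centred on its own mean. It read 1197 and 1199 with vehicle and 4122 and 3976 with IL-1b. Por, the electron donor of cytochrome P450 enzymes, and Ugcg, which makes glucosylceramide, followed at 0.044 and 0.051. Nearest to Cebpb were Eeig2, Gramd4 and Ttc7a, at 0.038 to 0.042, and nearest to Cebpg were Ccnk, Fdx1 and Psmd7, at 0.013 to 0.019. Tango6, Mtfr1 and Ube2d1 were nearest to Cebpa, at 0.059 to 0.067, and each of them also read lower on IL-1b replicate 1 and higher on IL-1b replicate 2 than on the vehicle arrays. With 4 arrays many genes have near profiles, so these distances are a description.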

How the data were processed

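The deposited values are MAS5 intensities of Affymetrix arrays, computed by the authors per the submitters' processing notes, which as used here name no settings. Each array's mean without the lowest and highest 2% of values was 250.1, so arrays were not rescaled. An offset of 5.49, the 10th percentile, was added before log2, which understates changes of dim genes. After removal of 57 control probe sets, the 18625 probe sets with a mean log2 value at or above the 40th percentile (5.37) entered limma 3.58.1 (R 4.3.3, group means, eBayes with an intensity trend). Benjamini-Hochberg adjustment covered all of them. The fit had 2 residual degrees of freedom and 4.91 from the prior, and the number of arrays limits the precision. It was tested on simulated data.

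The brightest probe set with 1 symbol stands for a gene. Named in the text are all C/EBP probe sets, the genes of each list that moved most among those past the threshold (at most 4), 14 genes picked for their role, and the 3 nearest profiles of each C/EBP gene. Others are marked, or were added for their promoter. The members and lists were chosen with earlier results of these data known. Alternatives were other offsets, normalizations, filters, priors and probe set choices, a replicate block and leaving out each array. Promoter windows end before the start, since transcribed bases are not printed. Promoters with no entry in the table used were not analysed, and 1 promoter with an entry is not reported here. The bound from control probe sets and the TGACG motif were added after the data were seen.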

Additional observations from a re-analysis of the deposited data

How the results depend on the processing

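Cebpb and both tested probe sets of Cebpd stayed higher and past the threshold under all 13 alternatives run for each. Median centring moved the median of all probe sets by -0.20, which left Cebpb at 1.38 and Cebpd at 1.53, and without the intensity trend their adjusted p values were 0.030 and 0.024. The dim Cebpa changed sign at its brightest probe set, to 0.0116 with the offset at the 25th percentile, and it ranged from -0.74 to 0.71 with 1 array left out (0.01 without vehicle replicate 1). Its second probe set ranged from 0.61 to 1.69. The Cebpg probe sets ranged from 0.10 to 0.38 and from 0.32 to 0.88, passing only without IL-1b replicate 1. The ratio of Cebpg to Cebpa, 0.26, ranged from -0.32 to 0.84. Without the intensity trend 0 related factors rose, 4 regulators rose and 0 fell, 0 metabolic genes rose and 0 growth arrest genes fell. Metabolic genes that rose were also 0 with median centring and with the mean over probe sets, and those that fell were 0 with no filter, with the filter at the 60th percentile and with the mean over probe sets, which gave 5 growth arrest genes that rose. With 1 array left out, related factors that rose numbered 0 to 2 and that fell 0 to 1, regulators 4 to 11 and 1 to 7, metabolic genes 1 to 2 and 0 to 1, and growth arrest genes that rose 3 to 6. The causes of these moves were not tested. Over all probe sets 2503 were called, 1634 with median centring, 963 without the trend, 1487 and 1357 without vehicle replicate 1 or 2, and 5423 and 8666 without IL-1b replicate 1 or 2. Without the trend Nfil3, Trib1, Trib2, Smarca2, Mapk14, Hpx, Plin2, Cdkn1a, Cdkn1b, Gadd45g and Rb1 also missed the threshold.

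The replicate numbers are shared between groups, and deviations of same-numbered arrays correlated at 0.091, too little to pair them with 2 pairs. With the replicate block Cebpb was at 1.59 and 3276 probe sets were called, with no C/EBP call changed. Of the 5 probe sets of Cebpa, 2 were above background on both vehicle arrays.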
